A study of Mus musculus with 24 samples.

Results

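E14TG2a mouse embryonic stem cells carrying a knockout of Alkbh5 (labelled Alkbh5 KO, here KO) were followed through 4 lengths of metabolic RNA labelling, 10, 20, 40 and 60 min. The members are the 8 KO samples, 2 at each time, of the 24 in the series, and they were chosen by the genotype and time that their labels give. Cells labelled WT and cells labelled Alkbh5 del-cIDR make up the other 16, with 8 samples each. All groups received EU (5-ethynyl uridine) at 1 mM and grew in medium with 15% serum, LIF at 1000 U/ml, the MEK inhibitor PD0325901 at 1 µM and the GSK3 inhibitor CHIR99021 at 3 µM. The labels name no second KO clone, and they tie no sample to a culture of its own, so the spread behind each p-value is that between samples and may be technical.

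EU replaces some of the uridine in RNA as it is made, and a click reaction allows the labelled RNA to be captured. After a short pulse the captured RNA is mostly nascent, while after a longer pulse finished transcripts join it, and a transcript that is degraded quickly stops gaining label sooner than a stable one. ALKBH5 is a nuclear enzyme that erases m6A, a methyl group carried by some adenosines of RNA. Every sample also received RNA of EU-labelled Drosophila cells, the spike-in, so reads per spike-in read measure the captured amount.

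Each deposited value is the log2 ratio of a KO time to the KO 10 min samples, over both samples together. The reads of each library were worked out from these ratios, and a library's replicate number could not be, so A stands for the library of each pair that had more spike-in reads, and B for the other. The KO libraries held 5045460 to 22158292 reads over genes and 6037 to 21504 spike-in reads. Levels are reads scaled to 11714 spike-in reads per library. The relative level of a gene is its level divided by that of the median gene of the library, and a trend is the slope of its log2 value per doubling of labelling time. Over the 8 KO libraries the stem cell marker Zfp42 stood at 114 to 130 times the median gene, Nanog at 60.3 to 83.7 times and Pou5f1 at 20.8 to 27.3 times. Of the markers of other cells, the neural genes Nes (20.0 to 30.1) and Tubb3 (4.84 to 7.55) were above the median gene throughout. The neural genes Pax6 (0.694 to 2.11) and Sox1 (0.954 to 1.28) and the trophoblast gene Gata3 (0.752 to 1.34) lay around it. The endoderm genes Gata4 (0.328 to 0.595) and Sox17 (0.0377 to 0.152) lay below it, and Foxa2, Afp, T, Cdx2, Col3a1 and Dcn were at 0 in at least 1 library and at most at 0.0661. Among the tested markers of other cell types, 3 of 9 neural, 2 of 11 endoderm and mesoderm, 3 of 8 trophoblast and 1 of 6 fibroblast genes were faster by the test below, and 1 of the endoderm and mesoderm genes was slower, beside 17.8% faster and 6.66% slower over all genes tested.

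Alkbh5 itself gave reads in every KO library, with relative levels of 8.57 and 7.84 (10 min), 7.37 and 6.42 (20 min), 9.96 and 10.2 (40 min), and 10.5 in both libraries of 60 min. Here and below the value of library A comes first. Both libraries of 20 min lay below and both of 40 and 60 min above those of 10 min. Reads summed over a whole gene do not show whether the edited part is missing, so this does not check the deletion. The trend was 0.19 ± 0.04 (SE; limma, adjusted p = 0.00728), and it did not pass without library B of 10 min (0.16, limma, adjusted p = 0.0627) or with quantile normalization (0.09, limma, adjusted p = 0.172).

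Labelled RNA in KO cells grew through the whole hour. Reads over genes per spike-in read were 571 and 704 (10 min), 801 and 925 (20 min), 1390 and 1581 (40 min), and 2258 and 2084 (60 min). No library of a later time lay below one of an earlier time. The mean at 60 min was 3.40 times that at 10 min, and the slope was 0.69 ± 0.06 (SE) on the log2 scale per doubling of minutes, with an exact two-sided permutation p of 0.000794 over 2520 arrangements of the 8 libraries. Reads over repeats per spike-in read were 651 and 814, 841 and 1062, 1390 and 1584, and 2153 and 1922 at the same times. Their mean grew 2.78-fold, with a slope of 0.57 ± 0.06 (exact two-sided permutation p = 0.00119). Repeat reads per gene read were 1.14 and 1.16 at 10 min and 0.953 and 0.922 at 60 min.

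**Figure D1:**
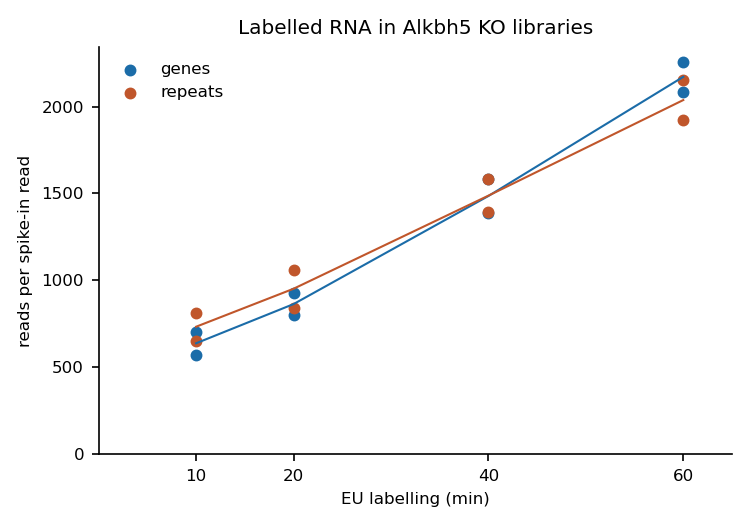
Reads per spike-in read (vertical axis) against minutes of EU labelling (horizontal axis) in the 8 KO libraries, with genes in blue and repeats in orange. Points are libraries and lines join the means of 2, and the gene means run from 638 at 10 min to 2171 at 60 min.

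The median of the deposited log2 ratios over the 22448 genes tested was 0.42, 1.20 and 1.67 for 20, 40 and 60 min, and 99.3% of them lay above 0 at 60 min. Against that shared rise, 3997 genes (17.8%) accumulated faster than the median gene and 1494 (6.66%) slower at an adjusted p under 0.05 (limma over all 24 libraries, Benjamini-Hochberg). Of these, 250 exceeded 0.5 per doubling and 255 lay below -0.5. Centring on genes with a level of at least 50 gave 2476 faster and 2251 slower, and quantile normalization gave 2048 and 1893, so faster genes made up 72.8% of the calls as reported, 52.4% with the first of these and 52.0% with the second. On the spike-in scale without centring, where the median trend was 0.65, 20311 genes rose and 9 fell. Among the 1494 slower genes, 1384 still had a trend above 0 on that scale and 812 of them passed there. The differences built up with time, since the genes that differed from 10 min numbered 15, 1994 and 4579 for 20, 40 and 60 min. Without library B of 10 min 2634 genes were faster and 697 slower, and without library A or B of 60 min 926 or 929 were slower.

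Id1, Id2 and Id3, which encode inhibitors of basic helix-loop-helix transcription factors and are known targets of BMP signalling, were among the 10 fastest genes with a mean KO level of at least 50. That ranking left out genes with a Gm, Rik or accession-like symbol. Id1 had relative levels of 0.281 and 0.286 (10 min), 0.649 and 0.396 (20 min), 1.81 and 2.29 (40 min), and 3.02 and 3.81 (60 min). Its libraries did not overlap between any of the 4 times, and the trend was 1.43 ± 0.14 (SE; limma, adjusted p = 1.74e-05). Id2 went from 0.760 and 0.592 through 1.08 and 0.981, then 2.87 and 3.39, to 4.33 and 4.58, at a trend of 1.11 ± 0.07. Id3 went from 0.413 and 0.327 through 0.924 and 0.849, then 2.34 and 2.32, to 2.61 and 2.75, at a trend of 1.15 ± 0.15. In Id2 and Id3, as in Id1, each time lay above the one before it in both libraries.

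The promoters of Id2 and Id3 are shown because both genes moved together, as the 250 bases before the RefSeq start in build GRCm38.p6. Id2 lies at chr12:25096093-25096342, minus strand, and Id3 at chr4:136143572-136143821, plus strand. Capitals mark CCAAT and TATAAA on either strand, which Id2 holds 3 and 0 times and Id3 0 and 0 times.
Id2: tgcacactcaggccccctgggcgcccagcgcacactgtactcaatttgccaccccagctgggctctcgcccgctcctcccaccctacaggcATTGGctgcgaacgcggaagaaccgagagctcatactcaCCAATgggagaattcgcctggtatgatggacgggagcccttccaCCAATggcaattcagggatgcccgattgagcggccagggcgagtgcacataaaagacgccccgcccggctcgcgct
Id3: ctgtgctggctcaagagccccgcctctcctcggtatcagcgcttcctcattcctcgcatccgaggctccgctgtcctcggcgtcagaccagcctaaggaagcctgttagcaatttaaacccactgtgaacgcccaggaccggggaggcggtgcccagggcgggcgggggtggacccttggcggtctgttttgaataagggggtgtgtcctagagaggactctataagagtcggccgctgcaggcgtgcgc

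Among 13 genes of the BMP and TGF beta response, 8 were faster (61.5%) and 0 slower, beside 17.8% and 6.66% over all genes tested. Their median trend was 0.24 against 0.03 over all genes tested. Smad7, an inhibitor of the receptors of this pathway, had relative levels of 14.9 in both libraries of 10 min, 21.5 and 21.8 (20 min), 29.6 and 29.7 (40 min), and 38.3 and 41.1 (60 min). Its trend was 0.54 ± 0.04 (limma, adjusted p = 3.55e-06), and each time lay above the one before it.

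Myc, the growth-promoting transcription factor, had relative levels of 0.231 and 0.204 (10 min), 0.504 and 0.472 (20 min), 1.10 and 1.28 (40 min), and 1.56 and 1.92 (60 min). The times did not overlap, and the trend was 1.15 ± 0.09 (limma, adjusted p = 4.76e-06). Il3, a cytokine of blood cell formation, gave the steepest trend of the genes named by the rule, at 1.59 ± 0.16. Its relative levels went from 0.0248 and 0.102 through 0.221 and 0.208, then 0.679 and 0.848, to 1.13 and 1.00. The pair of 10 min libraries stood furthest apart as a ratio. The median gene had a level of only 65.9 and 80.1 in these libraries, so the trend of Il3 starts from few reads. The other genes of the 10 fastest at that level were Trh (thyrotropin-releasing hormone) at 0.97 ± 0.17, the zinc finger gene Tshz2 at 0.90 ± 0.14, Spry4 (a Ras pathway inhibitor) at 0.83 ± 0.19, the olfactory receptor gene Olfr968 at 0.83 ± 0.12 and the Notch ligand gene Dll1 at 0.81 ± 0.09. These also start from few reads, at relative levels of 0.0816 to 0.347 at 10 min. The 10 min pair of Tshz2 was 0.306 and 0.0816. Olfr968 went from 0.157 and 0.143 at 10 min to 0.0916 and 0.0755 at 20 min before it rose.

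**Figure D2:**
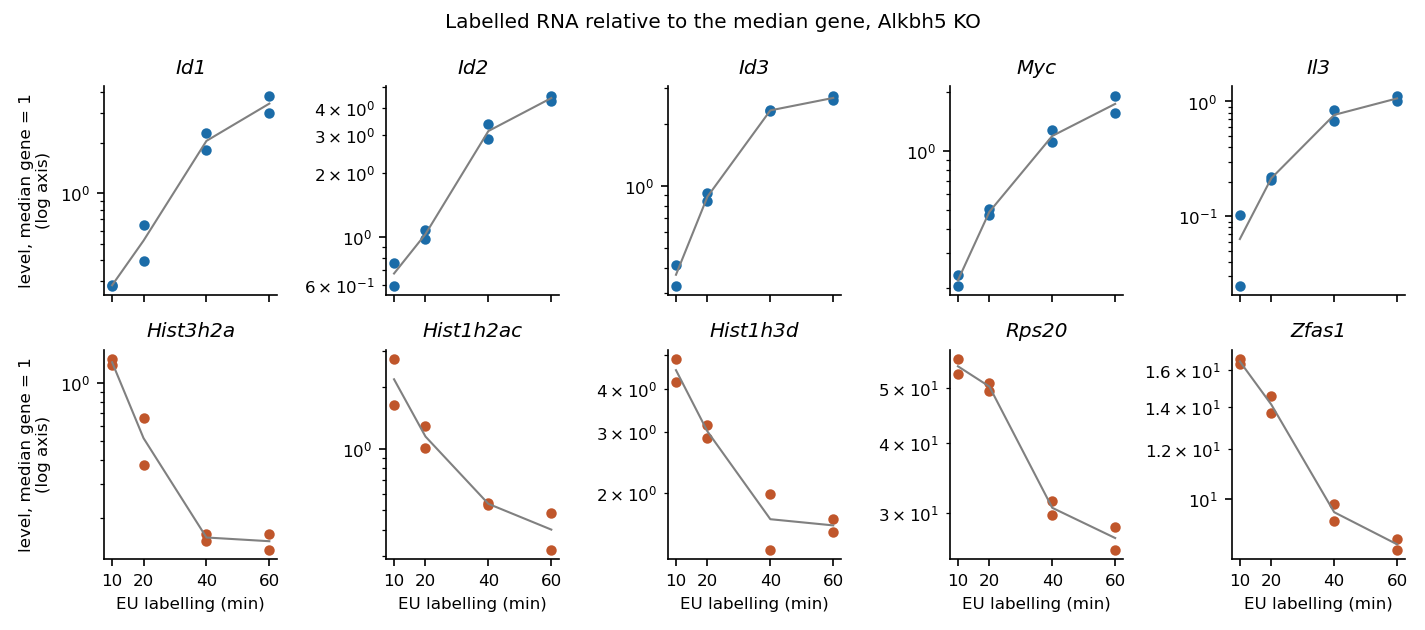
Relative level (vertical log axis, median gene of the library = 1) against minutes of EU labelling for 10 genes in the 8 KO libraries. Points are libraries and lines join the means of 2, with faster genes in blue (Id1 from 0.281 to 3.81) and slower genes in orange (Hist3h2a from 1.33 to 0.137).

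Over all genes tested 17.8% were faster and 6.66% slower. Immediate early genes, which cells switch on within minutes of a stimulus, were faster in 14 (53.8%) and slower in 1 of 26, with a median trend of 0.23. Fos had a trend of 0.63 ± 0.13, Ccn1 of 0.56 ± 0.04 and Klf6 of 0.46 ± 0.04. MAPK feedback genes, which include phosphatases that switch off ERK, were faster in 9 and slower in 0 of 17 (median 0.19), led after Myc and Spry4 by Dusp6 at 0.57 ± 0.08 and Dusp4 at 0.53 ± 0.09. Of the Myc family and its partners 7 were faster and 2 slower of 11, with Mycn at 0.50 ± 0.04 and Mxd3, an antagonist of Myc, at -0.27 ± 0.05.

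Genes named Zfp, most of which encode zinc finger DNA-binding proteins, formed the list with most tested genes, with 176 faster and 2 slower of 348 and a median of 0.15. The faster share was 50.6%, beside 17.8% over all genes tested and 29.8% at a mean KO level of 300 to 1000. The median level of the list was 432, and the part of level in this share was not tested. Zfp819 went from relative levels of 2.27 and 2.14 through 2.98 and 3.25, then 5.54 and 5.22, to 6.51 and 6.48. No 2 times overlapped, and its trend was 0.63 ± 0.04 (limma, adjusted p = 9.37e-07). The median Zfp gene was at -0.07 on the deposited ratio at 20 min relative to the median gene, and at 0.16 and 0.30 at 40 and 60 min.

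Naive pluripotency genes were faster in 16 and slower in 0 of 33 (median 0.15), with Socs3 at 0.43 ± 0.06, Nr0b1 at 0.40 ± 0.06 and Klf5 at 0.34 ± 0.03. Formative and primed genes were faster in 8 and slower in 0 of 17, with the transcription factor genes Zic2 at 0.54 ± 0.04 and Foxd3 at 0.40 ± 0.07. The circadian list was faster in 8 and slower in 0 of 14, including the repressor gene Nr1d2 at 0.67 ± 0.05. Of the m6A machinery 13 were faster and 0 slower of 24 (median 0.14), led by the m6A reader gene Ythdf3 at 0.35 ± 0.04 and the writer subunit gene Rbm15 at 0.28 ± 0.03. The pattern was not particular to the KO, since in WT 17 of the 24 were faster, beside 5440 of all 22448 genes tested. The median trend was 0.19 in WT and 0.27 in del-cIDR. Of the 24, 0 differed between KO and WT, but only 2 of all 22448 genes did (0.00891%), so this count says little. Ythdf3 had relative levels of 13.7 and 13.2 (10 min), 12.1 and 12 (20 min), 20.6 and 18.6 (40 min), and 24.1 and 22.8 (60 min). Its 20 min libraries lay below those of 10 min, and those of 40 and 60 min above. Faster genes numbered 13 of 23 p53 targets, 13 of 25 genes of cholesterol synthesis and 21 of 53 enzymes that modify histones, with 0 slower in each. Over all genes tested 17.8% were faster, but 29.8% at a mean KO level of 300 to 1000 and 45.0% over 1000. The median level was over 1000 in the naive pluripotency (48.5% faster), m6A (54.2%), p53 (56.5%) and histone enzyme (39.6%) lists. It was lower in the formative, circadian and cholesterol lists. How far level accounts for these counts was not tested.

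**Figure D3:**
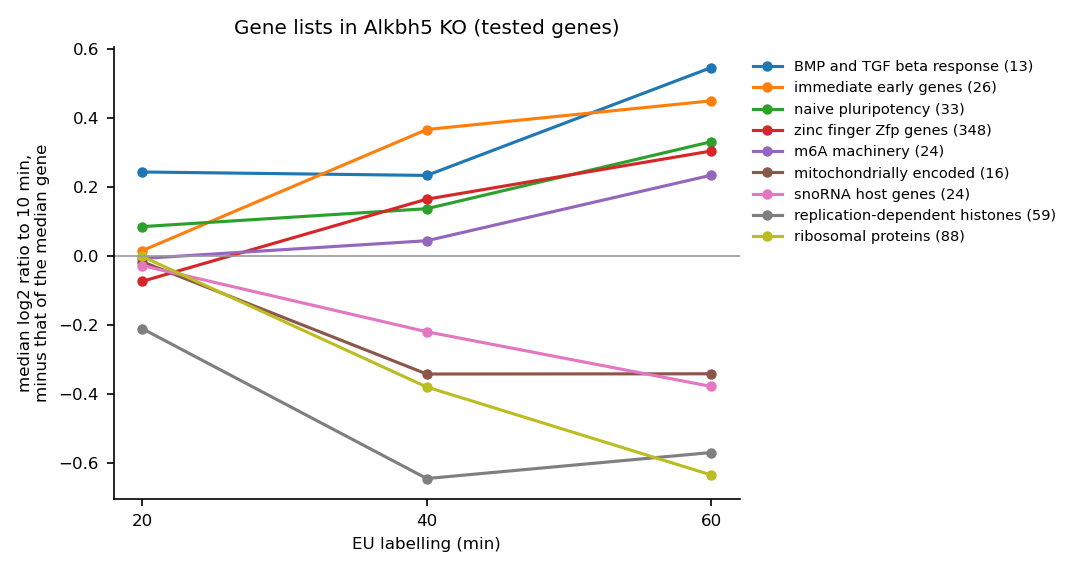
Median of the deposited log2 ratios to 10 min in KO, minus that of the median gene (vertical axis), at 20, 40 and 60 min (horizontal axis) for 9 gene lists with the number of tested genes in brackets. Lines join the authors' values over both libraries; the BMP and TGF beta list ends at 0.55 and ribosomal proteins at -0.63.

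Replication-dependent histone genes have messages that end in a stem-loop in place of a poly(A) tail. With Gm, Rik and accession-like symbols left out, they made up 6 of the 10 slowest genes with a mean KO level of at least 50. Of 59 tested, 21 were slower (35.6%) and 0 faster, beside 6.66% and 17.8% over all genes tested, with a median trend of -0.21. Hist3h2a had relative levels of 1.23 and 1.33 (10 min), 0.656 and 0.377 (20 min), 0.164 and 0.152 (40 min), and 0.137 and 0.166 (60 min). The 40 and 60 min libraries overlapped each other and lay below all earlier ones, at a trend of -1.26 ± 0.11 (limma, adjusted p = 6.44e-06). Hist1h2ac went from 1.63 and 2.73 through 1.01 and 1.28, then 0.530 and 0.544, to 0.321 and 0.483, at a trend of -0.95 ± 0.10. Hist3h2a and Hist1h2ac also fell on the spike-in scale, by 0.64 ± 0.15 and 0.33 ± 0.15 per doubling (limma, adjusted p = 0.000698 and 0.0397), so that less of their RNA was captured after longer labelling. Hist1h2bp at -0.70 ± 0.10, Hist1h3f at -0.65 ± 0.07, Hist1h3d at -0.62 ± 0.07 and Hist1h2bm at -0.58 ± 0.12 were the other histones among these 10. Copies of these genes are nearly identical, so the share of reads given to each is uncertain. Hist3h2a, at a mean KO level of 50.2, also overlaps 2 genes in GENCODE M21. Of these Trim17 had a mean KO level of 63.9, so some of the reads counted for Hist3h2a may not be its own.

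The promoters of 3 slow histone genes follow because these genes moved together, with the same 2 motifs in capitals. Hist3h2a (H2aw in RefSeq) lies at chr11:58954435-58954684, plus strand, Hist1h2ac (H2ac6) at chr13:23683960-23684209, minus strand, and Hist1h3d (H3c4) at chr13:23575513-23575762, plus strand.
Hist3h2a: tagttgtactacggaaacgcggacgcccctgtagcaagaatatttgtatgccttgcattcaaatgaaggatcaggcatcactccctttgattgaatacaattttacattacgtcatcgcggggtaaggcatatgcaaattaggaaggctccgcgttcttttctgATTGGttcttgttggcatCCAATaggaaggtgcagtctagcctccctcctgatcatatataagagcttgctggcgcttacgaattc
Hist1h2ac: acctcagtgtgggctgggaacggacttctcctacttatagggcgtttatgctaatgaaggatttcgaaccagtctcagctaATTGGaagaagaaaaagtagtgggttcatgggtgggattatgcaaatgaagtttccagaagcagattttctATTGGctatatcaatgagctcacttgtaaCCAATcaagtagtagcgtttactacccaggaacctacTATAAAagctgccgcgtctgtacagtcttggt
Hist1h3d: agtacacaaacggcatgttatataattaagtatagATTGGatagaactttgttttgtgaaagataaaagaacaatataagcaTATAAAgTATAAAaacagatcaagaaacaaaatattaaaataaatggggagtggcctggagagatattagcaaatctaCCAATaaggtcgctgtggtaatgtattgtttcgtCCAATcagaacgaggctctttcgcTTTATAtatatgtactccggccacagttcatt

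CCAAT stood in 44 of 54 histone promoters (81.5%) against 34.2% of 27025 promoters of the same length, 1 per gene. TATAAA stood in 29 of 54 (53.7%) against 12.9%. A match of letters is a description and does not show a site in use.

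Ribosomal protein genes were slower in 36 (40.9%) and faster in 0 of 88, beside 6.66% and 17.8% over all genes tested, with a median trend of -0.21. Rps20, a protein of the small subunit, had relative levels of 53.1 and 56.3 (10 min), 51.2 and 49.6 (20 min), 31.5 and 29.8 (40 min), and 25.9 and 28.4 (60 min). The times did not overlap, and the trend was -0.42 ± 0.05 (limma, adjusted p = 0.000141). On the deposited ratio relative to the median gene, the median of the list was -0.0012 at 20 min, then -0.38 and -0.63 at 40 and 60 min. On the spike-in scale 85 of the 88 rose.

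Host genes of snoRNAs, whose introns carry these guide RNAs for rRNA modification, were slower in 10 and faster in 4 of 24 (median -0.11). These shares were 41.7% and 16.7%, beside 6.66% slower and 17.8% faster over all genes tested. Zfas1 went from 16.7 and 16.4 through 14.6 and 13.7, then 9.21 and 9.82, to 8.30 and 8.62, at a trend of -0.39 ± 0.03 (limma, adjusted p = 5.27e-06). Gas5, another such host, had a trend of -0.37 ± 0.04 and Snhg8 of -0.47 ± 0.07. Annotated snoRNAs were slower in 8 (16.7%) and faster in 1 (2.08%) of 48. Snord72, Snord43 and Snora21 lie inside Rpl37, Rpl3 and Rpl23 in GENCODE M21, so their reads and those of the host introns cannot be told apart.

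The remaining genes of the 10 slowest at a mean KO level of at least 50 were Rpl21-ps15, a pseudogene on the other strand of Wnk3, at -0.68 ± 0.18, Rep15 (a Rab15 effector) at -0.67 ± 0.16, Omp (olfactory marker protein, inside Capn5) at -0.61 ± 0.07 and Prss12 (a secreted protease) at -0.57 ± 0.08. Rpl21-ps15 and Rep15 lost their calls without KO library B of 10 min (limma, adjusted p = 0.133 and 0.0681), as did Hist1h2bm (0.0539). Of 16 mitochondrially encoded genes 2 were slower (12.5%) and 0 faster, beside 6.66% and 17.8% over all genes tested. The 2 were the tRNA gene mt-Tp at -0.26 ± 0.07 and mt-Nd4l at -0.23 ± 0.07. The mitochondrial share of gene reads was 1.80 to 1.99% at 10 and 20 min and 1.44 to 1.49% at 40 and 60 min.

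Trends also differed with the length and level of a gene. The median trend was -0.07 for genes under 2 kb, 0.00 from 2 to 10 kb, 0.07 from 10 to 50 kb, 0.06 from 50 to 200 kb and 0.09 over 200 kb. By mean KO level it went from -0.06 under 30 to 0.10 over 1000. Within each of the 5 level classes the genes under 2 kb had the lowest median, from -0.12 over a level of 1000 to -0.03 between 100 and 300. Genes over 200 kb had the highest median in the 3 lower level classes, and genes of 10 to 50 kb in the 2 higher ones. Protein-coding genes had a median of 0.06, with 3545 faster (24.2%) and 678 slower (4.64%) of 14621. Antisense genes had a median of -0.07, with 61 (4.67%) and 139 (10.6%) of 1307. Processed pseudogenes had a median of -0.07, with 81 (4.52%) and 157 (8.75%) of 1794. The median levels of these biotypes were 335, 41.3 and 34.8. Over all genes tested 17.8% were faster and 6.66% slower, but 5.43% and 8.59% at a mean KO level of 30 to 100. How far level accounts for the differences between biotypes was not tested. Chromosome medians ran only from 0.01 on chromosome 9 to 0.07 on chromosome X. Low levels understate a rise on this scale, and the part of that in these classes was not tested. Centring on genes with a level of at least 50 moved the median of all genes from 0.03 to -0.02, so the sign of a class median near 0 rests on the centring.

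**Figure D4:**
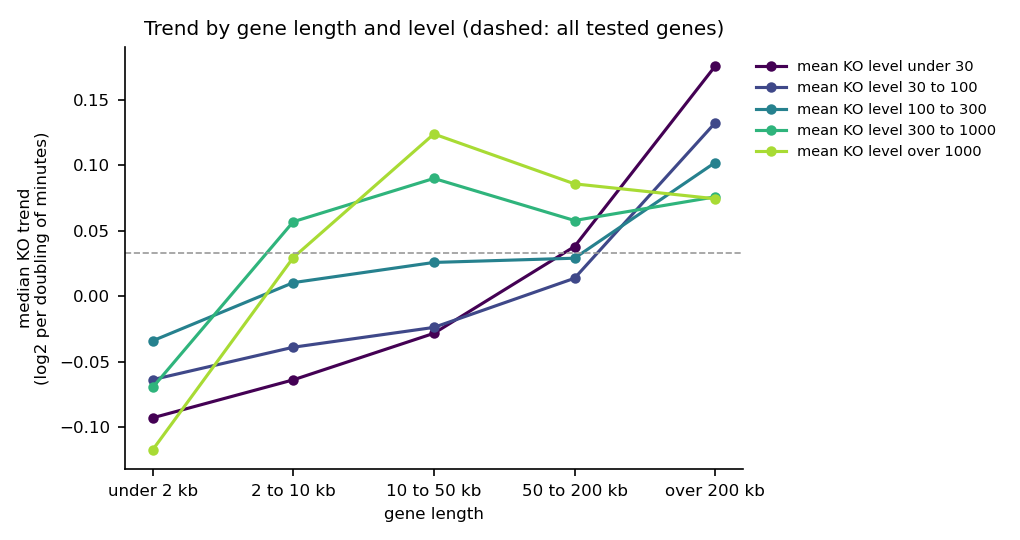
Median KO trend (vertical axis, log2 per doubling of minutes) against gene length class (horizontal axis), with 1 line for each class of mean KO level. The dashed line marks the median of all tested genes, 0.03, and genes under 2 kb lie below it in every level class.

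Repeats were summed by family and set against the median gene. Of 60 repeat families, 2 were faster (3.33%) and 4 slower (6.67%) than the median gene at an adjusted p under 0.05 (limma), and 42 had a trend below 0. Leaving out 1 library gave 2 to 6 slower families. LINE/L1, the family with most reads and the autonomous retrotransposon of mammals, had a trend of -0.03 ± 0.03 (limma, adjusted p = 0.512). The short elements SINE/Alu (B1 in mouse) and SINE/B2, copied with the help of L1, were slower at -0.06 ± 0.02 in both (limma, adjusted p = 0.0368 and 0.0395). These calls had the largest adjusted p of the 4 slower families, and centring on the median family left 2 slower families. tRNA loci were slower at -0.12 ± 0.02 and the DNA transposon family DNA/hAT-Tip100 at -0.23 ± 0.03 (limma, adjusted p = 0.000172 in both). The retrovirus-like families LTR/ERVK, LTR/ERVL and LTR/ERV1 had trends of -0.03 ± 0.02, -0.05 ± 0.03 and 0.01 ± 0.02, none of which passed. DNA/hAT-Ac at 0.13 ± 0.03 and loci of unknown class at 0.14 ± 0.02 were faster. Reads over a repeat inside a gene cannot be told from that gene's own.

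**Figure D5:**
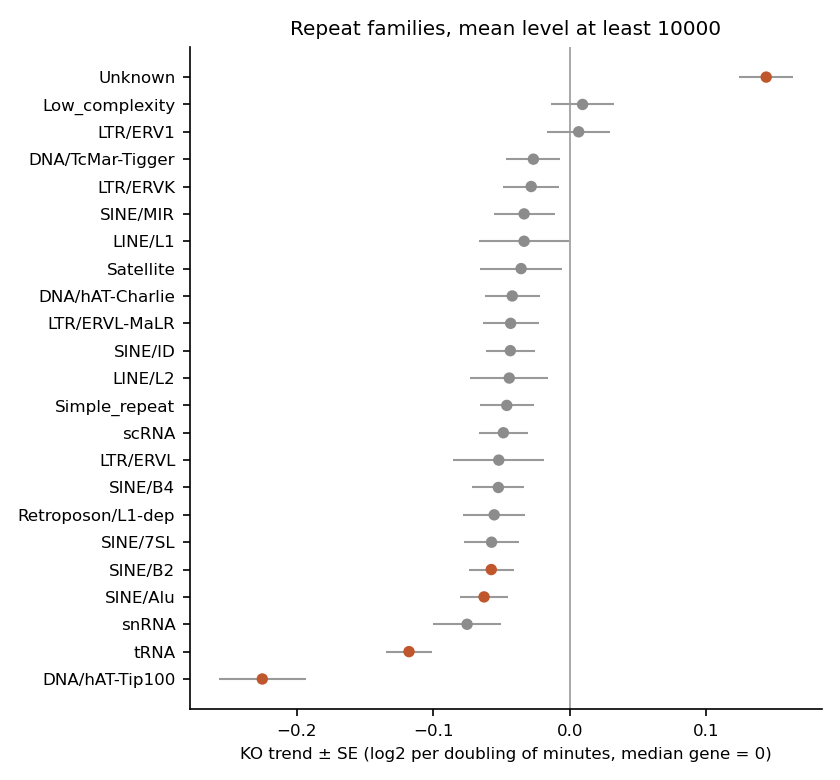
KO trend of the 23 repeat families with a mean level of at least 10000 (horizontal axis, log2 per doubling of minutes, median gene = 0), with points for the trend, bars for its SE and orange for an adjusted p under 0.05. Most families lie between -0.08 and 0.01, and DNA/hAT-Tip100 stands lowest at -0.23.

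The trends were set beside those of WT, which shares no samples with KO. The trend differed between KO and WT in 2 genes above (0.00891%) and 0 below (0%) of 22448 (limma, adjusted p under 0.05), while 2368 had an unadjusted p under 0.05, and in 0 of 60 repeat families, where 4 had an unadjusted p under 0.05. For loci of unknown class the KO trend was below that of WT by a difference of -0.11 ± 0.03, with a limma adjusted p of 0.0880 over the families and 0.0162 over the broader repeat classes. Id1 had a trend of 1.23 in WT and Hist3h2a of -1.52, and neither difference from KO passed (limma, adjusted p = 0.754 and 0.553). Ribosomal protein genes had a median of -0.16 in WT and replication-dependent histones of -0.33. Without KO library A of 10 min 110 genes differed, and without the 10 min libraries 0 did, so the count changes with the libraries used. A fit without the 10 min libraries also has fewer libraries and a shorter span of times.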

How the data were processed

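The authors deposited log2 ratios for 56941 genes and 4929385 repeat loci, each a KO, WT or del-cIDR time against 10 min of the same genotype, scaled to spike-in reads with both replicates combined, per the file headers and values. Per the submitters' processing notes, tools included HISAT2, SAMtools and Picard, and the build was GRCm39. The counter, its use of strand and its annotation were not given in the sources used here. Whole reads per library were recovered from the ratios for every gene line, and 1 simple-repeat locus without a solution was left out for all genotypes. For 178 tested genes in KO, and 2829 in any group of the fit, it was unclear which library held which reads, and such a group entered as 1 value. Tested genes had a mean level of at least 10 and reads in at least 6 libraries. Values were log2(level + 1), centred on the median tested gene, and fitted with limma 3.58.1 in R 4.3.3, 1 coefficient per group. The scripts were tested on simulated data. There the reads of all 8 libraries came out right in 100% of KO lines at each depth tried. For WT this held for 90.0% of lines at a mean of 1000 reads at 10 min. At 3000 reads it held for 49.3%, and 0% were marked clear. Symbols and lengths came from GENCODE M21 (lengths for 95.9% of tested genes) and promoters from RefSeq, 8 of 12 looked up. Named genes were the 10 largest trends each way at a mean KO level of at least 50, up to 4 per list, Alkbh5, and mitochondrial genes. The 10 each way left out Gm, Rik and accession-like symbols. Not all genes that the rule names are reported here. The members and lists were chosen with earlier results of these data known. Depth limits low genes, and no counting interval is given.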

Additional observations from a re-analysis of the deposited data

Results flagged for a closer look

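The trend of 2 genes differed between KO and WT in a direct test, and of these Dusp8 was named after its values were seen. Bhlhe40, a transcriptional repressor of the circadian system, had a relative level of 1.17 and 1.02 at 10 min and 2.49 and 2.46 at 60 min in KO, against 0.899 and 1.08 at 10 min and 0.618 and 0.606 at 60 min in WT. The trend was 0.45 ± 0.05 in KO and -0.24 ± 0.05 in WT, a difference of 0.685 ± 0.073 (limma, adjusted p = 0.00253). Dusp8, a phosphatase of stress-activated kinases, had a relative level of 0.0165 and 0.0204 at 10 min and 0.368 and 0.407 at 60 min in KO, against 0.0909 and 0.216 at 10 min and 0.189 and 0.166 at 60 min in WT. Its difference was 1.334 ± 0.138 (limma, adjusted p = 0.00253), at a mean KO level of 34.9. The median gene had a level of 65.9 and 80.1 in the KO 10 min libraries. Dusp8 there lay close to the 1 added before the log2, so its KO trend starts from very few reads. Neither call held without the 10 min libraries, where 0 genes differed, and 110 genes differed without KO library A of 10 min. A fit without the 10 min libraries has fewer libraries and a shorter span of times. At 20, 40 and 60 min Bhlhe40 still rose in KO (1.71 and 1.57, 2.16 and 2.01, 2.49 and 2.46). It fell in WT over these times (0.896 and 1.00, 0.797 and 0.889, 0.618 and 0.606).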

How the results depend on the processing

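No paired analysis was possible because the recovered libraries carry no replicate numbers. Beside the 3997 faster and 1494 slower genes, faster genes numbered 2476 with centring on genes of a level of at least 50, 2048 with quantile normalization, 2381 with KO libraries only and 2201 without genes with an unclear split. Slower genes numbered 2251 with that centring, 2369 with a pseudocount of 5 and 3158 without a filter on low levels. On the spike-in scale, a setting chosen after seeing the data, 20311 rose and 9 fell. Leaving out 1 KO library at a time gave 2634 to 3979 faster and 697 to 1479 slower genes, the lowest of both without library B of 10 min, and 926 and 929 slower without library A or B of 60 min. Slower repeat families numbered 2 with centring on the median family, 2 for 60 against 10 min, and 2 to 6 without 1 library, with 2 on leaving out B of 10 min, B of 20 min, either of 40 min or B of 60 min. Genes with a KO minus WT difference numbered 0 without the 10 min libraries and 2 to 110 without 1 KO library. Slopes of the totals stayed between 0.65 and 0.76 for genes and 0.54 and 0.64 for repeats without 1 library, and passed each time. Of the named genes' alternatives 2479 kept direction and call, 305 lost the call and 13 changed sign. Of the alternatives for the list medians 78 stayed within the spread between libraries and 66 moved, and the medians of 7 lists changed sign in at least 1. With quantile normalization Ndufs1 turned to -0.0007271, Polr2b to -0.0007172, Polr2m to -0.0139 and mt-Nd5 to 0.02606. Without the filter mt-Co3 turned to 0.04499, mt-Nd1 to 0.01882 and mt-Co1 to 0.04008. Without the 10 min libraries Mir30c-1 turned to -0.04259. For 60 against 10 min mt-Co3 turned to 0.06236 and mt-Co1 to 0.03539. Without 1 KO library mt-Co3 ran from -0.07995 to 0.02877 and mt-Co1 from -0.09368 to 0.03268. The cause of these changes was not tested.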

Other observations

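Several lists held a smaller share of faster genes than the 17.8% over all genes tested, where 6.66% were slower and the median trend was 0.03. Faster and slower genes numbered 2 and 2 of 93 nuclear genes of the respiratory chain (median -0.05), and the median of their deposited ratios at 60 min was 0.23 below that of the median gene. They numbered 2 and 0 of 36 proteasome genes (median -0.01), 6 and 1 of 78 mitochondrial ribosomal proteins (median -0.0044) and 4 and 1 of 24 glycolysis genes (median -0.01), and each of these 3 medians changed sign in an alternative. The glycolysis share of 16.7% faster was close to that over all genes. So was that of translation initiation and elongation factors, at 13 and 1 of 69 (18.8% faster, median 0.06). Both of these lists and the proteasome list had a median level over 1000, and 45.0% of all genes at such levels were faster. The respiratory chain and mitochondrial ribosomal lists had median levels of 453 and 467, and 29.8% of all genes at 300 to 1000 were faster. All 5 shares lay below those of genes at such levels, and how far level accounts for them was not tested. The chaperone gene Hsp90aa1, among the genes with most reads at a mean KO level of 42665, had a trend of -0.12 ± 0.09 (limma, adjusted p = 0.405). Loci of LTR/ERV1 between 1 and 3 kb had a trend of 0.16 ± 0.03 while the whole family stood at 0.01, a split by length chosen after seeing the data.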
